A study of Mus musculus with 37 samples.

Results

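The genes described here encode the glucose transporter SLC2A1 and 9 enzymes of glycolysis, namely HK2, ALDOA, TPI1, GAPDH, PGK1, PGAM1, ENO1, PKM and LDHA. They were chosen by a list of 10 human Ensembl gene IDs, matched without their version suffix, and all 10 were found among the 60708 IDs of the count table. In pathway order the IDs are ENSG00000117394.24 (SLC2A1), ENSG00000159399.10 (HK2), ENSG00000149925.22 (ALDOA), ENSG00000111669.15 (TPI1), ENSG00000111640.15 (GAPDH), ENSG00000102144.15 (PGK1), ENSG00000171314.9 (PGAM1), ENSG00000074800.16 (ENO1), ENSG00000067225.19 (PKM) and ENSG00000134333.14 (LDHA), and the gene names come with that list. Glycolysis turns glucose into pyruvate in the cytosol and yields ATP without the use of oxygen, and LDHA then reduces pyruvate to lactate. Cells that lack oxygen stabilise the transcription factor HIF-1, and the genes of this pathway are textbook HIF-1 targets. Activated macrophages and lymphocytes are also known for taking up more glucose and running more glycolysis.

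The libraries came from spleen cells of wild-type FVB mice. All but the naive ones were cultured for 48 h with cells of the mouse macrophage-like line RAW264.7 or with medium those cells had conditioned. Before that, the RAW cells had spent 72 h at 21% oxygen (normoxia) or 1% oxygen (hypoxia), with SPP1 at 1 µg/mL or without it. SPP1, or osteopontin, is a secreted ligand of integrins and of CD44. The splenocytes met the RAW cells in 1 of 3 modes, and naive splenocytes met neither RAW cells nor their medium. Whether the naive splenocytes were cultured at all is not stated in their label. In the medium mode they received only what the RAW cells had conditioned (11 libraries), in the cells mode the unwashed RAW cells (12 libraries), and in the washed mode the RAW cells after their medium had been washed off (12 libraries). Each mode held 4 groups, named by oxygen and SPP1, with 3 libraries each except medium normoxia no-SPP1, which had 2, as had naive. Together these made 13 groups and 37 libraries. The low oxygen was given to the RAW cells in advance, and none was stated for the co-culture. Brefeldin A, which blocks protein secretion, was added to the cultures at 48 h. The study used female mice, and the age of the spleen donors and the number of spleens per culture are not given in the sources used here.

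The libraries held 631574 to 1337314 counts (median 1063211), and values below are CPM, counts scaled to library size after TMM, edgeR's default normalisation. Because the authors mapped the mouse reads to a human assembly, each ID holds the mouse reads that matched a human gene, and levels are compared here between libraries only, never between genes. PGK1, GAPDH and ENO1 have near-identical pseudogenes or paralogs, with which their reads may be shared. In the principal components of log2 CPM, 6 libraries stood apart. The first component put medium normoxia no-SPP1 replicate 3 at -10.7 and its hypoxia counterpart replicate 1 (medium hypoxia no-SPP1) at -11.6, away from the other medium libraries at -57.5 to -41.5. On the second, cells hypoxia no-SPP1 replicate 2, both replicates 1 and 2 of washed normoxia SPP1, and replicate 1 of washed hypoxia SPP1 lay between -54.4 and -31.8, whereas all others lay at -14.2 or above. Values without these libraries are given beside the results that rest most on them. Leaving all 6 out keeps only 1 library in medium normoxia no-SPP1 and 1 in washed normoxia SPP1. Comparisons with these 2 groups then use a spread taken from the other groups. RNA of RAW cells may be present in the cells and washed libraries, and in such bulk samples a change in the number of cells of a type and a change of RNA per cell cannot be told apart.

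The share of all IDs called gives the scale for what follows. An ID is referred to as called where edgeR's quasi-likelihood test gave a Benjamini-Hochberg adjusted p under 0.05 over the 5193 IDs with enough counts to be tested. Of the 10 genes, 5 were among these 5193 IDs: SLC2A1, GAPDH, PGK1, ENO1 and PKM. The remaining 5 were not tested, because too few reads matched them. ALDOA, which splits fructose 1,6-bisphosphate, had 0 counts in all 37 libraries. LDHA and PGAM1, the mutase between the PGK1 and ENO1 steps, had 1 count each. TPI1, which interconverts the triose phosphates, had 21 counts spread over 12 libraries with at most 7 in any of them. HK2, which phosphorylates glucose on entry, had 29 counts in 14 libraries with at most 5. At these depths 3 counts correspond to 2.01 to 4.97 CPM. These low counts cannot be read as absence of the mouse transcripts, since reads that did not align to the human genome are not seen.

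The promoters are shown because PGK1 and PKM were both called for hypoxia in the cells mode, as described below. HIF-1 binds a core of 5 bases, ACGTG or GCGTG, and a part of HIF-1 in these changes was not tested. The windows are those of the mouse genes in RefSeq on GRCm38.p6, 250 bases before to 50 bases after each start, and all 10 genes had at least 1 of 16 windows. Capitals mark each ACGTG or GCGTG, which reads CACGT or CACGC when it lies on the opposite strand. A CACGTG would match on both strands. Pgk1 lies at chrX:106186850-106187149 on the plus strand and holds 2 matches. Pkm has 2 windows on the plus strand, at chr9:59656326-59656625 with 0 matches and at chr9:59656977-59657276 with 2. Slc2a1, shown as the transporter whose hypoxia effect in the cells mode followed 1 library, lies at chr4:119108495-119108794 on the plus strand and holds 2.
Pgk1: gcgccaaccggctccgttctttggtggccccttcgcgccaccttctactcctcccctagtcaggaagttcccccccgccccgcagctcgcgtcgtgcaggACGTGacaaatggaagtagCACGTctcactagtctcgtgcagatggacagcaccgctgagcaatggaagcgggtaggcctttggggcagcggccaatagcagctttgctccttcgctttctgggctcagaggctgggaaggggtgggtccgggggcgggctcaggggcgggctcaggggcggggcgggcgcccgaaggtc
Pkm, first window: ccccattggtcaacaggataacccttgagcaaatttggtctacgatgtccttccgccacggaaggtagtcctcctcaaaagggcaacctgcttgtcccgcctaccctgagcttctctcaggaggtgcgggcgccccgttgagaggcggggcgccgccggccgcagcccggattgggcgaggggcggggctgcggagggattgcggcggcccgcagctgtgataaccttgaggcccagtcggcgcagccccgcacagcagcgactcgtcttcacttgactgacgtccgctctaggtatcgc
Pkm, next window: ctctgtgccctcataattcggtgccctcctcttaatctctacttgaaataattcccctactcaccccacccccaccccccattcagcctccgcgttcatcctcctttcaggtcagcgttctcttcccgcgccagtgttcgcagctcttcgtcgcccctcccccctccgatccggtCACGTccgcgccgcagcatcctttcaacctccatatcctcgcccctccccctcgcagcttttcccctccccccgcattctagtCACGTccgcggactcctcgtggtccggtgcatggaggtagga
Slc2a1: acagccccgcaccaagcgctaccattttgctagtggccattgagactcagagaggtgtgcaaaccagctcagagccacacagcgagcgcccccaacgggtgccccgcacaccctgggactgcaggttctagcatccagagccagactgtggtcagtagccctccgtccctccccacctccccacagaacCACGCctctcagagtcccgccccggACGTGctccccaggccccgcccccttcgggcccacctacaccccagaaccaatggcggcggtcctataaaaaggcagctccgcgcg
Over the 10 genes, 13 of 16 windows held a match, and of all 32851 RefSeq windows of 300 bases, 43.8% did. Some of the 16 windows overlap and hold the same matches, as for Eno1 and Aldoa, so they are not separate. By gene, 9 of 10 had a match in at least 1 window, Tpi1 being the exception. No share by gene was taken over all genes. As the 10 genes are textbook HIF-1 targets, no excess is read from these shares. A match describes these letters only and says nothing of whether a factor was bound in these cells.

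Across the 13 groups, the lowest mean of SLC2A1, GAPDH, PGK1 and PKM was that of a cells normoxia group, and the lowest mean of ENO1 was that of washed hypoxia SPP1. PGK1, the phosphoglycerate kinase that makes the first ATP of the pathway, ranged from 34.0 ± 3.54 CPM (SD, n = 3) in cells normoxia no-SPP1 to 153 ± 126 (SD, n = 3) in cells hypoxia no-SPP1. PKM, the pyruvate kinase of the last step, ranged from 1.91 ± 1.81 CPM (SD, n = 3) in cells normoxia no-SPP1 to 29.9 ± 5.50 (SD, n = 3) in medium hypoxia SPP1. ENO1, the enolase one step before PKM, had the fewest counts of the tested genes, at most 25 in a library, and its means ran from 1.43 ± 1.75 CPM (SD, n = 3) in washed hypoxia SPP1 to 14.8 ± 9.19 (SD, n = 3) in medium hypoxia SPP1.

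GAPDH, the dehydrogenase ahead of PGK1, ranged from 20.5 ± 5.68 CPM (SD, n = 3) in cells normoxia no-SPP1 to 95.3 ± 72.4 (SD, n = 2) in medium normoxia no-SPP1. SLC2A1, the transporter also called GLUT1, ranged from 20.5 ± 2.39 CPM (SD, n = 3) in cells normoxia SPP1 to 238 ± 280 (SD, n = 2) in naive. Groups next to each other in these orders overlapped in most cases, and the highest groups of PGK1, GAPDH and SLC2A1 had the widest SDs. The 2 IDs outside the 10 genes whose 13 group means were most like the mean of the 5 tested genes were ENSG00000167996.16 (Pearson r = 0.925) and ENSG00000170017.12 (r = 0.916), given as a description.

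**Figure D1:**
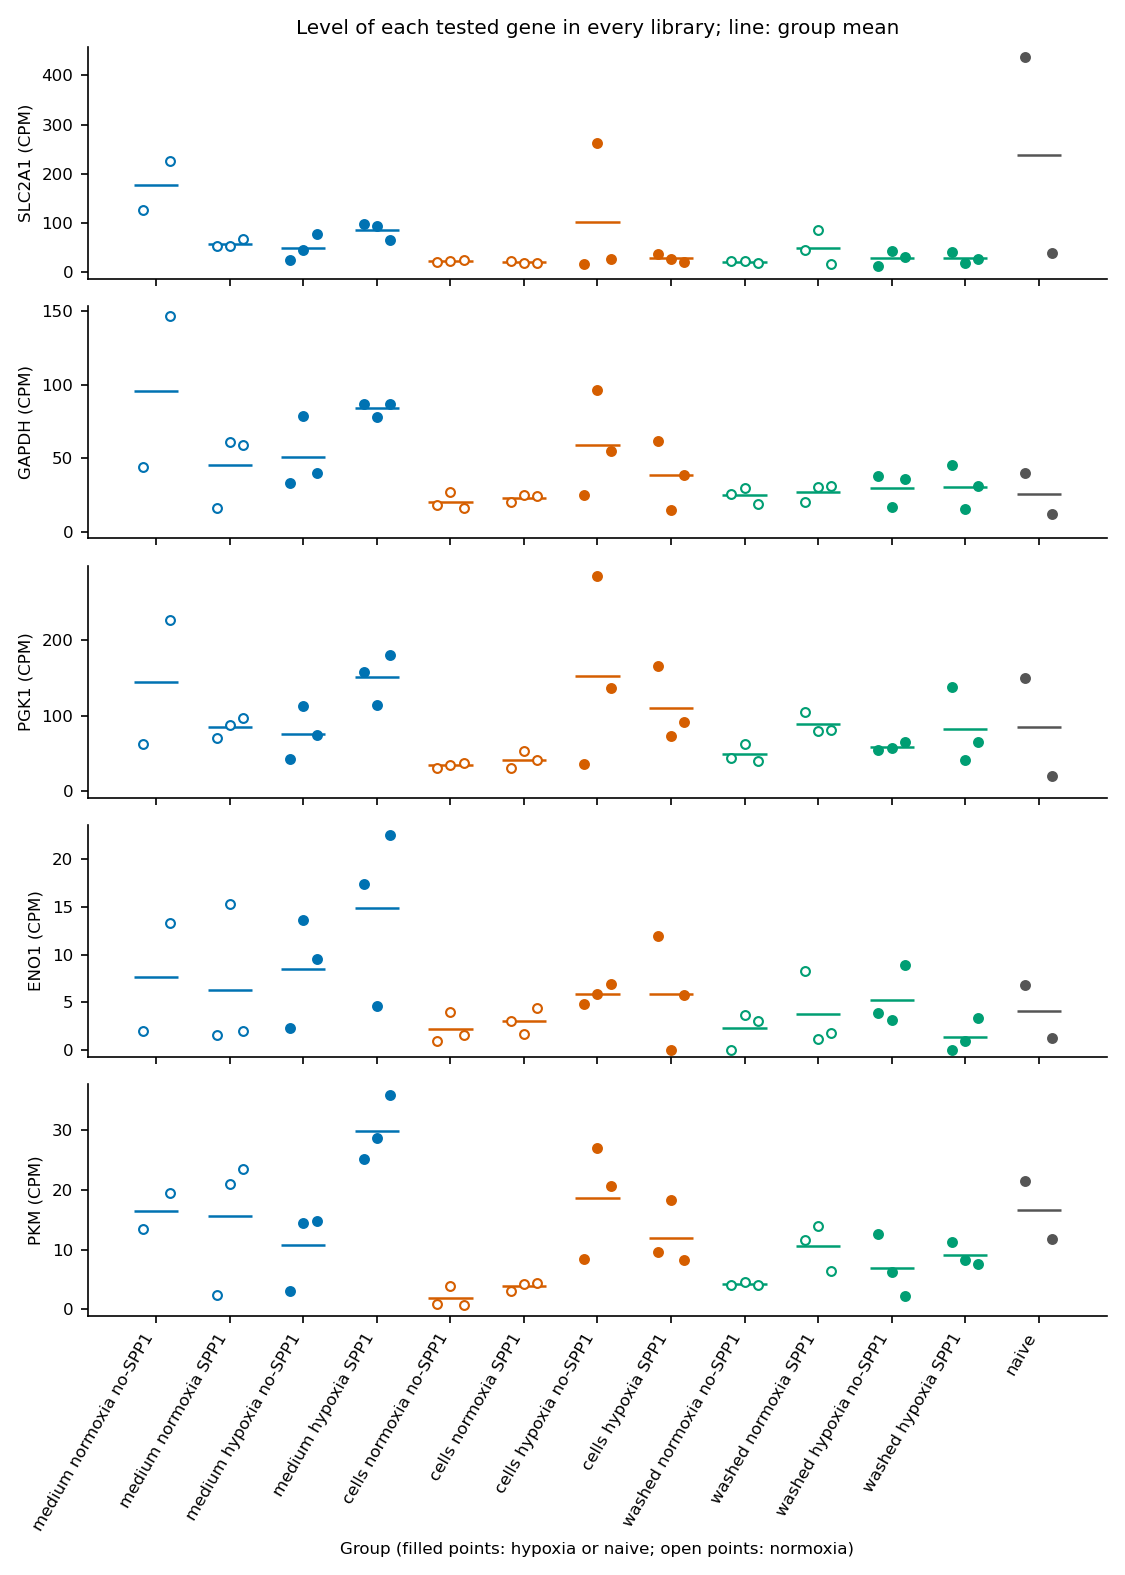
Level of the 5 tested genes in every library, in CPM on a linear axis, by group. Points are libraries, filled for hypoxia and naive and open for normoxia, and lines are group means. The 6 cells normoxia libraries of PKM sit between 0.783 and 4.44 CPM, below all 6 cells hypoxia libraries at 8.20 to 26.9, and single high libraries are seen for SLC2A1 in naive (436) and in cells hypoxia no-SPP1 (263).

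The first comparison asked whether prior hypoxia of the RAW cells moved these genes within each mode. On the first principal component of all tested IDs, the cells normoxia libraries lay at 15.1 to 20.6. Cells hypoxia libraries lay at -10.9 to 3.46, nearer to the medium libraries, except no-SPP1 replicate 2 at 22.5. Whether the changes of these genes are part of that wider shift was not tested. In the cells mode 2 of the 5 tested genes were called, both higher, where 3.62% of all IDs were called and 2.72% were called higher. PKM had 8.41, 26.9 and 20.7 CPM in cells hypoxia no-SPP1 and 9.57, 18.2 and 8.20 in cells hypoxia SPP1. Its values in cells normoxia were 0.952, 4.0 and 0.783 CPM without SPP1 and 3.09, 4.19 and 4.44 with it. All 6 hypoxia libraries lay above all 6 normoxia libraries, which was so for 127 IDs or 2.45% of those tested. The PKM log2 fold change was 2.43 (SE 0.493, adjusted p 0.00211), a 5.39-fold difference, although the normoxia libraries held only 1 to 6 counts and the hypoxia libraries 7 to 23.

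PGK1 was the other gene called. In cells hypoxia it had 36.0, 286 and 136 CPM without SPP1 and 166, 72.9 and 91.0 with SPP1. In cells normoxia it had 30.5, 34.0 and 37.6 CPM without SPP1 and 30.1, 52.8 and 40.7 with SPP1. Of the hypoxia libraries 5 of 6 lay above every normoxia library, and the exception, cells hypoxia no-SPP1 replicate 1, lay among them. The log2 fold change was 1.79 (SE 0.387, adjusted p 0.00447), a 3.45-fold difference. Without the 6 libraries that stood apart, 1 of which is in cells hypoxia, PGK1 had a log2 fold change of 1.39 (adjusted p 0.00330) and PKM 2.27 (adjusted p 0.00203). Both genes were called under all 20 alternatives, with the highest adjusted p at 0.0404 for PGK1, without cells hypoxia no-SPP1 replicate 2, and 0.0151 for PKM.

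GAPDH, SLC2A1 and ENO1 were not called for hypoxia in the cells mode. GAPDH had a lowest, median and highest level of 14.9, 46.9 and 96.0 CPM in hypoxia and 16.4, 22.2 and 27.0 in normoxia, with 4 of 6 hypoxia libraries above every normoxia one (log2 fold change 1.12, SE 0.373, adjusted p 0.0872). It was called in 5 of 20 alternatives, DESeq2 among them (adjusted p 0.0429), and in fits without cells hypoxia no-SPP1 replicate 1 (adjusted p 0.0345) or cells hypoxia SPP1 replicate 2 (adjusted p 0.0418). SLC2A1 had 16.8, 27.0 and 263 CPM in hypoxia and 18.5, 22 and 25 in normoxia, also with 4 of 6 hypoxia libraries above every normoxia one, 3 of these at 26.5 to 38.3 CPM and the other at 263. Its log2 fold change of 1.31 (SE 0.482, adjusted p 0.127) was 0.22 (adjusted p 0.859) without cells hypoxia no-SPP1 replicate 2, and it was 1.56 (adjusted p 0.0364) without cells hypoxia no-SPP1 replicate 1. ENO1 had 0, 5.80 and 12.0 CPM in hypoxia and 0.952, 2.38 and 4.44 in normoxia, from at most 15 counts (log2 fold change 1.16, SE 0.713, adjusted p 0.407). Of its hypoxia libraries 5 of 6 lay above every normoxia one, as for PGK1. The share of all IDs that reach 4 or 5 of 6 was not counted. All 5 tested genes had a positive log2 fold change, and the positive sign was also found with RLE scaling and with library totals. Their median, 1.31 against 0.05 over all tested IDs, is the value of SLC2A1, and that value of SLC2A1 rests on cells hypoxia no-SPP1 replicate 2. With any 1 cells library left out all 5 stayed positive, the lowest being that 0.22 of SLC2A1. Over these fits the lowest values of the other genes were 0.66 for ENO1, 0.86 for GAPDH, 1.38 for PGK1 and 2.23 for PKM.

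**Figure D2:**
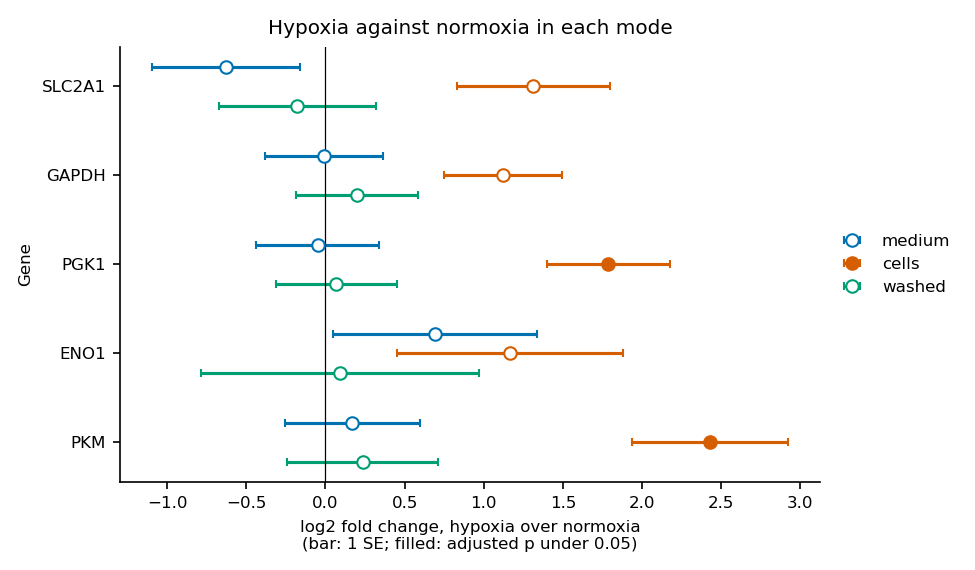
Log2 fold change of hypoxia over normoxia for the 5 tested genes in each mode, with bars of 1 SE and filled points for an adjusted p under 0.05. The filled points are PGK1 at 1.79 and PKM at 2.43 in the cells mode, and the medium and washed points lie between -0.63 and 0.69.

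**Figure D3:**
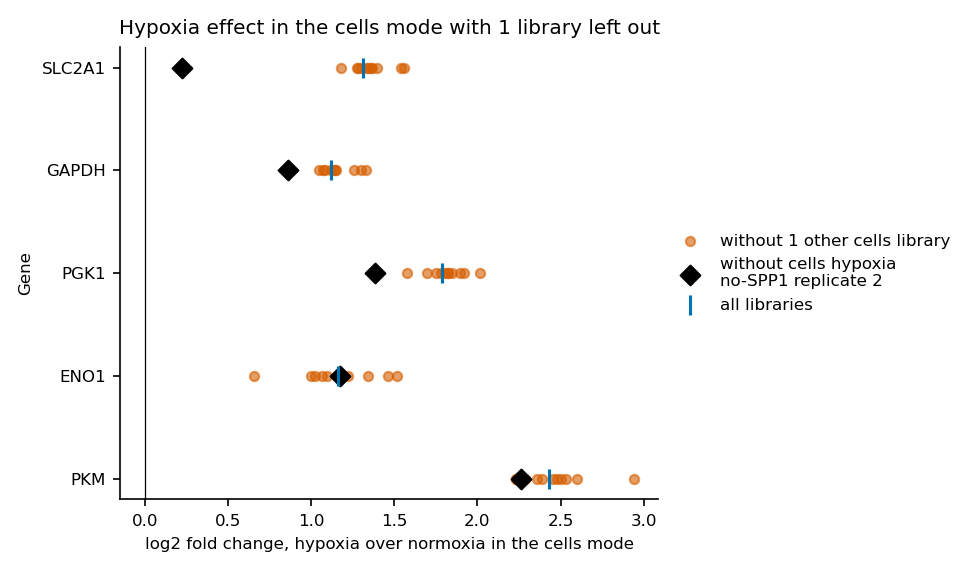
Log2 fold change of hypoxia over normoxia in the cells mode, for the 5 tested genes, with all libraries (vertical mark) and with 1 of the 12 cells libraries left out (points). The diamond is the fit without cells hypoxia no-SPP1 replicate 2, at 0.22 for SLC2A1, 1.38 for PGK1 and 2.26 for PKM.

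In the medium mode 0 of the 5 tested genes were called for hypoxia by edgeR and 0 by DESeq2, with 0 at an unadjusted p under 0.05 and 0.077% of all IDs called. PGK1 had a lowest, median and highest level of 42.4, 113 and 181 CPM in hypoxia and 62.2, 87.8 and 227 in normoxia (log2 fold change -0.05, SE 0.389, adjusted p 0.994). SLC2A1 had 26.2, 71.9 and 97.7 CPM in hypoxia and 53.1, 67.4 and 227 in normoxia (log2 fold change -0.63, SE 0.468, adjusted p 0.827). ENO1, with the largest fold change here, had 2.31, 11.6 and 22.5 CPM in hypoxia and 1.58, 2.04 and 15.3 in normoxia (log2 fold change 0.69, SE 0.645, adjusted p 0.896). The groups overlapped for each of the 5 genes. Both PGK1 and SLC2A1 had their highest normoxia value in medium normoxia no-SPP1 replicate 3, and both had their lowest hypoxia value in medium hypoxia no-SPP1 replicate 1, the 2 medium libraries that stood apart. Without the 6 libraries PGK1 had a log2 fold change of 0.71, GAPDH 0.67, PKM 0.56, ENO1 1.86 and SLC2A1 -0.22. That fit kept 1 library of medium normoxia no-SPP1, so only effect sizes are given.

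In the washed mode edgeR called 0 of the 5 genes for hypoxia, as did DESeq2, and 0 had an unadjusted p under 0.05, against 0.0385% of all IDs called. PGK1 had a lowest, median and highest level of 41.3, 61.0 and 138 CPM in hypoxia and 39.4, 71.1 and 104 in normoxia. PKM had 2.23, 7.93 and 12.5 CPM in hypoxia and 4.14, 5.50 and 13.9 in normoxia. GAPDH had 15.6, 33.4 and 45.1 CPM in hypoxia and 18.6, 27.8 and 30.9 in normoxia. For each of these 3 genes the ranges of the groups overlapped. For GAPDH 4 of 6 hypoxia libraries lay above every normoxia one, the same count as in the cells mode. Log2 fold changes of the 5 genes ran from -0.18 for SLC2A1 to 0.24 for PKM, with adjusted p-values from 0.929 to 0.995 and SEs of 0.383 to 0.879. They ran, with the 6 libraries left out and 1 library kept in washed normoxia SPP1, from -0.17 for PGK1 to 0.69 for ENO1.

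Whether the hypoxia effect differed between modes was tested directly. The effect in cells minus that in medium was 1.84 on the log2 scale for PGK1 (SE 0.544, adjusted p 0.131), 2.26 for PKM (SE 0.650, adjusted p 0.123), 1.94 for SLC2A1 (SE 0.670, adjusted p 0.269) and 1.13 for GAPDH (SE 0.523, adjusted p 0.524). These 4 were among 436 of 5193 tested IDs with an unadjusted p under 0.05. Yet 0 of the 5 genes were called by edgeR or by DESeq2, where 0.481% of all IDs were called by edgeR. Without the 6 libraries that stood apart, with 1 library kept in medium normoxia no-SPP1, the differences between cells and medium were smaller. They were 0.68 for PGK1, 1.71 for PKM, 0.45 for SLC2A1, 0.20 for GAPDH and -0.68 for ENO1 (against 0.48 with all libraries). PGK1 had 1.46 (adjusted p 0.375) without cells hypoxia no-SPP1 replicate 2 alone and 1.23 (adjusted p 0.685) without medium normoxia no-SPP1 replicate 3 alone. Effects in cells exceeded those in washed by 1.72 for PGK1 (SE 0.542) and 2.19 for PKM (SE 0.697), each with an adjusted p of 0.336, and by 1.56 and 1.76 without the 6 libraries (adjusted p 0.237 and 0.528). For SLC2A1 the excess was 1.49 (adjusted p 0.670) with all libraries and -0.21 (adjusted p 0.960) without the 6. In that comparison 3 genes were among 366 of 5193 tested IDs with an unadjusted p under 0.05. Of the 5 genes 0 were called by either tool, and edgeR called 0.173% of all IDs. With every ID that had a count kept in the fit, edgeR called PGK1 and SLC2A1 for cells minus medium (adjusted p 0.000756 and 0.00118) and PGK1 for cells minus washed (adjusted p 0.00439). That fit was not repeated without single libraries, and in the filtered fit the SLC2A1 difference from medium was 0.87 (adjusted p 0.825) without cells hypoxia no-SPP1 replicate 2. Washed minus medium gave 0 calls by either tool, 0 genes at an unadjusted p under 0.05 and 0% of all IDs called, with values from -0.60 to 0.45, and from -1.16 to 0.65 without the 6 libraries. The calls of PGK1 and PKM in the cells mode were thus not shown to differ from the other modes in the tests as set.

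The modes themselves were compared next, over both oxygen levels and SPP1. All 5 tested genes were lower in cells than in medium, where 48.7% of all IDs were called and 25.3% were called lower. All 5 were also lower in washed than in medium, where 58.7% were called and 30.2% were called lower. PKM had a lowest, median and highest level of 2.38, 19.5 and 35.9 CPM in medium, 0.783, 6.32 and 26.9 in cells and 2.23, 6.98 and 13.9 in washed. Its log2 fold change was -1.38 (SE 0.325, adjusted p 0.000626) for cells and -1.19 (SE 0.319, adjusted p 0.00163) for washed. All 12 washed libraries and 10 of 12 cells libraries lay below the medium median. GAPDH had 15.8, 61.1 and 146 CPM in medium, 14.9, 25.2 and 96.0 in cells and 15.6, 29.9 and 45.1 in washed. For GAPDH the log2 fold changes were -1.02 (SE 0.262, adjusted p 0.00158) and -1.22 (SE 0.267, adjusted p 0.000186). All 12 washed and 10 of 12 cells libraries again lay below the medium median, and the ranges overlapped.

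SLC2A1 had a lowest, median and highest level of 26.2, 67.4 and 227 CPM in medium, 16.8, 23.1 and 263 in cells and 13.5, 25.4 and 86.7 in washed. Of the cells libraries 8 of 12 lay below every medium library and 1 lay above all of them. The log2 fold change of SLC2A1 was -1.24 (SE 0.335, adjusted p 0.00251) for cells and -1.39 (SE 0.341, adjusted p 0.000711) for washed, and -1.72 and -1.77 without the 6 libraries that stood apart. SLC2A1, GAPDH and PKM were called in all 31 alternatives of both comparisons. PGK1 had 42.4, 96.9 and 227 CPM in medium, 30.1, 46.8 and 286 in cells and 39.4, 63.5 and 138 in washed. Its log2 fold changes, -0.64 (SE 0.271, adjusted p 0.0479) and -0.70 (SE 0.273, adjusted p 0.0264), were the smallest of the 5. ENO1 had 1.58, 9.57 and 22.5 CPM in medium, 0, 4.22 and 12.0 in cells and 0, 3.12 and 8.91 in washed, with log2 fold changes of -1.14 (SE 0.478, adjusted p 0.0459) and -1.57 (SE 0.510, adjusted p 0.00836).

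The calls of PGK1 and ENO1 were near the threshold. For cells against medium each was called in 14 of 31 alternatives, and without medium normoxia no-SPP1 replicate 3 the log2 fold changes were -0.31 for PGK1 (adjusted p 0.391) and -0.66 for ENO1 (adjusted p 0.360). ENO1, with the 6 libraries left out, had -0.77 for cells (adjusted p 0.246) and -1.30 for washed (adjusted p 0.0799). For cells against medium with the replicate number as a block, PGK1 and ENO1 had adjusted p-values of 0.0591 and 0.0558. For washed against medium PGK1 was called in 23 and ENO1 in 28 of 31 alternatives, and without that same library they had -0.36 (adjusted p 0.286) and -1.08 (adjusted p 0.124). With scaling by library totals the median log2 fold change over all IDs decreased by 0.168 for cells and decreased by 0.281 for washed, and the share of calls that were higher went from 48.0% to 35.8% and from 48.6% to 32.5%. Relative to that median the log2 fold changes of the 5 genes were then -1.38 (PKM) to -0.64 (PGK1) in cells and -1.53 (ENO1) to -0.67 (PGK1) in washed. Washed against cells gave 0 calls by edgeR and by DESeq2, 0 genes at an unadjusted p under 0.05, and log2 fold changes from -0.43 for ENO1 to 0.19 for PKM (-0.54 to 0.072 without the 6 libraries), where 7.24% of all IDs were called.

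**Figure D4:**
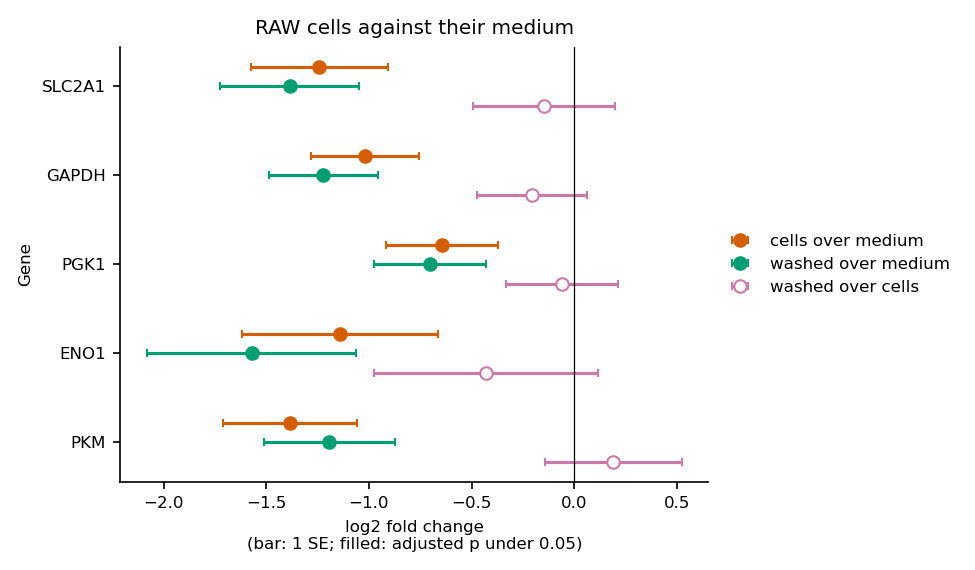
Log2 fold change of the 5 tested genes between modes, averaged over oxygen and SPP1, with bars of 1 SE and filled points for an adjusted p under 0.05. Points for cells over medium (-1.38 to -0.64) and washed over medium (-1.57 to -0.70) all lie left of 0, and those for washed over cells (-0.43 to 0.19) lie around it.

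Naive splenocytes served as the background, but their time in culture is not stated. A difference from naive thus cannot be told apart from an effect of culture itself. The 2 naive libraries also differed widely. SLC2A1 had 436 CPM (447 counts) in naive replicate 1 and 40.4 CPM (31 counts) in replicate 2, PGK1 had 149 and 19.5, and GAPDH had 40.0 and 11.7. PKM had 21.5 and 11.7 CPM, and ENO1 had 6.83 and 1.30. Replicate 1 was the higher for all 5 genes. SLC2A1 was the only gene of the 5 called against naive, with log2 fold changes of -1.56 in medium (SE 0.520, adjusted p 0.0200), -2.80 in cells (SE 0.490, adjusted p 4.42e-05) and -2.94 in washed (SE 0.491, adjusted p 1.70e-05), where 32.4%, 27.3% and 34.5% of all IDs were called. Without naive replicate 1 these were 1.09 (adjusted p 0.346), -0.14 (adjusted p 0.924) and -0.28 (adjusted p 0.832), so none of the 3 calls held without that library. Without the 6 libraries that stood apart, none of which is naive, they were -1.61, -3.33 and -3.37. The 3 comparisons share the same naive libraries. PKM had -1.38 in cells against naive (SE 0.541, adjusted p 0.0534) and was called there under several alternatives, with an adjusted p of 0.0233 without the 6 libraries that stood apart.

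SPP1 was given to the RAW cells to ask what it added to each condition. It moved 0 of the 5 genes past the threshold in any mode by edgeR or by DESeq2, where 0.25% of all IDs were called in medium, 0% in cells and 0.0193% in washed. An unadjusted p under 0.05 was found for 0, 1 and 0 of the genes in medium, cells and washed, and for 478, 87 and 527 of all 5193 tested IDs. That gene was SLC2A1 in cells, with 16.8 to 263 CPM without SPP1 and 18.5 to 38.3 with it (log2 fold change -0.996, SE 0.481, adjusted p 1.0), and the value of 263 is again that of cells hypoxia no-SPP1 replicate 2. Without that library the SLC2A1 log2 fold change was 0.095 (adjusted p 1.0). Log2 fold changes of the 5 genes ran from -0.42 to 0.69 in medium and from -0.54 to 0.78 in washed, with PKM highest in both. PKM had 3.08 to 19.5 CPM without SPP1 and 2.38 to 35.9 with it in medium, and 2.23 to 12.5 without and 6.36 to 13.9 with it in washed, ranges that overlapped. The 5 genes ran, with the 6 libraries left out, from -0.35 to 0.97 in medium and from -0.78 to 0.33 in washed, with 0 called. In washed, PGK1 had 43.5, 62.3 and 39.4 CPM in normoxia without SPP1 and 104, 79.8 and 80.8 with it. These 2 groups did not overlap, as for 4.79% of all IDs in that direction, and 2 of the 3 SPP1 libraries were among those that stood apart. PKM did not overlap between these groups either, with 4.14 to 4.65 CPM without SPP1 and 6.36 to 13.9 with it. Over both oxygen levels the PGK1 log2 fold change was 0.65 (SE 0.384, adjusted p 0.588), and 0.29 (adjusted p 0.905) without the 6 libraries.

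The interaction of SPP1 with oxygen was tested in each mode, and 0 of the 5 genes and 0% of all IDs were called in any of them by edgeR. DESeq2 called 0 of the 5 as well. In medium the interaction was positive for all 5 genes, from 1.10 for ENO1 to 2.38 for SLC2A1 on the log2 scale, against a median of 0.04 over all IDs. There 3 genes, SLC2A1, GAPDH and PGK1, had an unadjusted p under 0.05, with an adjusted p of 1.0 each. They were among 189 of 5193 tested IDs with such an unadjusted p. With medium normoxia no-SPP1 replicate 3 left out, the interaction was 0.50 for PGK1, 0.66 for GAPDH, 1.86 for SLC2A1 and -0.81 for ENO1. Leaving out all 6 libraries that stood apart, which left medium normoxia no-SPP1 with 1 library, gave 0.20 for PGK1, 0.44 for GAPDH, 0.79 for PKM, 1.54 for SLC2A1 and -1.27 for ENO1, so in both cases the interaction was not positive for all 5. PKM had 25.2, 28.7 and 35.9 CPM in medium hypoxia SPP1 above the 3.08, 14.5 and 14.8 CPM of medium hypoxia no-SPP1, an order without overlap that 6.72% of all IDs shared. PGK1 had the same order by a narrow gap, with 114 to 181 CPM with SPP1 and 42.4 to 112 without it. In medium normoxia PKM had 2.38, 21.0 and 23.5 CPM with SPP1 and 13.4 and 19.5 without it, which overlapped. In cells the 5 interactions ran from -1.69 to -0.51 and in washed from -2.10 to -0.14, and 0 had an unadjusted p under 0.05 in either mode. Leaving out the 6 libraries moved SLC2A1 from -1.66 to 0.50 in cells and from -1.20 to 0.015 in washed, and PGK1 in cells to 0.042.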

How the data were processed

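RNA had been converted to QuantSeq 3′ libraries, which read the ends of polyadenylated transcripts, and read from a single end. The series text gives bbduk for trimming of adapters and polyA tails, STAR 2.7.10b for alignment to the human assembly GRCh38 and featureCounts (Rsubread 2.0.3) for counting. The values that the authors deposited are raw counts per human Ensembl ID. Whether molecular identifiers were collapsed, and how reads matching several places were handled, is not given in the sources used here, so a count may hold PCR copies, and reads of paralogs and pseudogenes, which several of these genes have, can be mixed. The labels require a minimum RNA integrity but quote a range reaching below it.

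Groups came from the treatment labels and replicate numbers from the titles. Whether replicates came from separate mice is not stated per sample, so p-values measure the spread between these samples. In none of 35 replicate pairs did counts agree within sampling noise (chi-square per degree of freedom 2.78 to 42.9). Counts were analysed with R 4.3.3 and edgeR 4.0.16. The filter filterByExpr, by group with a minimum count of 10, kept 5193 of 22657 IDs with a count, holding 97.8% to 99.4% of the counts. A quasi-likelihood model with 13 group means was fitted to all 37 libraries with TMM scaling, contrasts of group means had equal weights, and F tests were adjusted by Benjamini-Hochberg over all IDs tested. SEs come from the F statistic. The fit was tested on simulated data with a common profile for all groups and planted changes. That simulation held no libraries that stood apart, so it does not show how the fit handles them. Alternatives were RLE scaling, library totals, TMM without the 10 genes, every ID with a count, DESeq2 1.42.0, the replicate number as a block, only the libraries compared, leaving out each library in turn, and leaving out the 6 libraries that stood apart. The 2 IDs given for likeness had the highest Pearson correlation, over 13 group means of log2 CPM, with the mean of the standardised values of the 5 tested genes.

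By rule the 10 genes were to be named in each comparison, with levels for those called or, where none was, for those with the largest fold changes. Genes that could not be tested are named once, levels of PGK1 are given throughout for comparison, and some genes not called are given only by their range. The genes, lists, alternatives and the set of 6 libraries were chosen with earlier results of these data known. Lists of other pathway genes and of cell type markers had been planned by symbol, but 0 of the human IDs occur in the mouse gene tables used here, so these lists were not analysed here and the labelled cell type was not checked by markers. Mouse promoter windows are from RefSeq.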

Additional observations from a re-analysis of the deposited data

Results flagged for a closer look

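Among 30 sets of 5 or 6 libraries (a tested gene in a mode and oxygen level), 3 held a library far from the rest by Dixon's test, where chance gives about 1 in 20. SLC2A1 had 263 CPM in cells hypoxia no-SPP1 replicate 2, and the nearest of the other 5 cells hypoxia libraries had 38.3. PGK1 had 227 CPM in medium normoxia no-SPP1 replicate 3, with the nearest of the other 4 medium normoxia libraries at 96.9. PGK1 had 138 CPM in washed hypoxia SPP1 replicate 1, with the nearest of the other 5 washed hypoxia libraries at 65.0. All 3 libraries are among the 6 that stood apart in the principal components.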

How the results depend on the processing

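Replicate numbers did not pair the samples: over 210 pairs of same-numbered libraries the median correlation of deviations was 0.0068, from -0.48 to 0.53. The replicate block changed 5 called genes to 3 for cells against medium and 1 to 2 for cells against naive, and no other count. Counts of called genes also moved with every ID kept, to 4 for hypoxia in cells, 2 for cells minus medium, 1 for cells minus washed and 2 for medium against naive. For cells against naive the count was 2 with RLE scaling, library totals, DESeq2, only the libraries compared and without the 6 libraries apart, and for washed against naive it was 2 with library totals and without the 6. Leaving out 1 library gave 2 to 4 for hypoxia in cells, 0 to 1 for cells minus medium, 3 to 5 for cells and for washed against medium, 1 to 2 for medium against naive, 0 to 2 for cells against naive and 0 to 1 for washed against naive. Hypoxia effects near 0 turned sign: GAPDH in medium was 0.035 with RLE scaling, 0.034 with DESeq2, 0.027 with the replicate block and 0.67 without the 6, where PGK1 in medium was 0.71, SLC2A1 in washed 0.43, GAPDH in washed -0.061 and PGK1 in washed -0.17. With 1 library left out, GAPDH ran from -0.31 to 0.56, PKM from -0.095 to 0.41 and PGK1 from -0.36 to 0.57 in medium, and ENO1 from -0.62 to 0.62, SLC2A1 from -0.42 to 0.16, PKM from -0.14 to 0.42 and PGK1 from -0.23 to 0.22 in washed. SLC2A1 in medium against naive ran from -2.44 to 1.09. The cause was not tested. Counting depth limits ENO1 and PKM, with at most 25 and 40 counts per library, and leaves HK2, TPI1, LDHA, PGAM1 and ALDOA untested.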

Other observations

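HK2 was too low to be tested, and its counts were looked at after their values were seen. The 3 washed normoxia SPP1 libraries held 4, 5 and 4 counts, which is 13 of the 29 counts in all 37 libraries. No other washed library held more than 2, and the highest library outside that group was medium normoxia no-SPP1 replicate 3 with 4. With every ID kept in the fit, HK2 had an adjusted p of 1.0 for hypoxia, for SPP1 and for their interaction in washed. Of the 3 libraries, replicates 1 and 2 are among the 6 that stood apart. TPI1 had 7 of its 21 counts in medium normoxia no-SPP1 replicate 3, the library in which PGK1, GAPDH and SLC2A1 were highest among the medium libraries.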
